A study of Mus musculus with 8 samples.

Results

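The troponin genes Tnnt1, Tnnt2, Tnnt3, Tnni1, Tnni3 and Tnnc1 were followed while mouse embryonic stem cells were turned into heart muscle cells in culture. They were chosen by gene symbol, and all 6 are among the 13540 genes of the table. The stages were ESC (embryonic stem cells, day 0), MES (mesodermal cells, day 4), CP (cardiac precursors, day 5.3) and CM (cardiomyocytes, day 10), all of strain 129/Ola, with 2 libraries each. ESC cultures are the undifferentiated starting point. For the other stages, cells grew as floating embryoid bodies in serum-free medium, were dissociated and allowed to reaggregate in the growth factors VEGF, Activin A and BMP4, and went on as plated cultures in medium holding VEGF, basic FGF and FGF10. Poly(A) RNA was sequenced from whole cultures, with no sort of cell types described. Each stage has a single RPKM value per gene (reads divided by the length of the gene model and by library depth), so there is no spread between replicates, no test and no p-value, and intervals below cover counting error alone.

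Troponin is the calcium switch of the thin filament in striated muscle. Troponin C binds calcium, troponin I holds actin and myosin apart while calcium is low, and troponin T ties the complex to tropomyosin. Each subunit has slow, fast or cardiac forms encoded by separate genes, and in the developing rodent heart the slow skeletal troponin I, Tnni1, is expressed first and is replaced by the cardiac form, Tnni3, around and after birth.

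Depth was 75.3, 62.0, 64.8 and 88.5 M reads in ESC, MES, CP and CM (1 M is 1000000). Its ratios were read from the steps between low values, and its absolute level from annotated exon lengths. The same steps gave whole read numbers for each of the 6 genes. The summed level of 8 cardiomyocyte markers was 12.4, 9.73, 676 and 7462 RPKM over the 4 stages. All 8 were at least 2-fold higher in CM than in CP, where 11.3% of all genes were. Markers of other cells were present in CP as well, with 6 blood markers summing to 258 RPKM and 7 endothelial markers to 337 RPKM there, against 9.51 and 116 RPKM in CM. Over the stages in order, 4 pluripotency markers summed to 1298, 84.5, 9.37 and 0.420 RPKM, 4 mesoderm markers to 6.52, 297, 0.586 and 0.107 RPKM, and 9 smooth muscle markers to 338, 42.0, 759 and 3466 RPKM. Pluripotency, mesoderm and cardiomyocyte markers thus summed highest in ESC, MES and CM, and no marker list of cardiac precursors was summed. In RNA from whole cultures, fewer cells of a type and less RNA per cell cannot be told apart.

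Cardiac troponin T, encoded by Tnnt2 (ENSMUSG00000026414), stood at 0.155 and 0.116 RPKM in the ESC and MES stages, at 437 RPKM in CP and at 1293 RPKM in CM. The first pair of values rests on 13 and 8 reads, and their 95% Poisson intervals, 0.0828 to 0.266 RPKM and 0.0502 to 0.229 RPKM, overlap. The value in CP was 3761-fold that in MES, with a counting interval of 1908 to 8711, and the value in CM was 2.96-fold that in CP (2.92 to 2.99). The CP minus MES difference in log2(RPKM + 1), a measure that shrinks the differences of genes with low values, was 8.62, the highest of all 13540 genes. The difference of CM minus ESC, 10.13, was also the highest of the table. By level, Tnnt2 ranked 12899 and 12910 among the genes in ESC and MES, 31 in CP and 10 in CM.

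Troponin C of slow and cardiac muscle, encoded by Tnnc1 (ENSMUSG00000021909), also had its widest step between MES and CP. Its 4 stage values, in order, were 2.04, 1.46, 315 and 692 RPKM. The CP value was 216 times that of MES (169 to 281), the third highest log2 difference of the table, and the CM value was 2.20 times that of CP (2.16 to 2.24). The rank by level was 30 in CM and 46 in CP. In the GENCODE M21 annotation Tnnc1 lies partly within Nisch on the opposite strand, with 0 exon bases in both. Nisch was at 90.8, 154, 226 and 236 RPKM, and its part in the low ESC and MES values of Tnnc1 was not tested.

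Slow skeletal troponin I, encoded by Tnni1 (ENSMUSG00000026418), was the earliest of the abundant members to stand above its ESC level. It was at 0.239, 5.50, 250.4 and 629 RPKM from ESC to CM. The MES value rests on 587 reads (5.06 to 5.96 RPKM) and the ESC value on 31 reads (0.162 to 0.339 RPKM), a ratio of 23.0 (16.0 to 34.2). The CP value was 45.5 times that of MES (42.0 to 49.5), and the CM value was 2.51 times that of CP (2.48 to 2.55). Tnnt2 and Tnnc1 had no higher value in MES than in ESC.

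Cardiac troponin I, encoded by Tnni3 (ENSMUSG00000035458), was late. From ESC through MES and CP to CM its values were 2.15, 1.12, 5.03 and 152 RPKM. The CP value was 4.48 times that of MES (3.70 to 5.47), and the CM value was 30.3 times that of CP (27.9 to 32.9). The log2 difference of 4.67 between CM and CP placed Tnni3 18th from the top of the table, where Tnnt2 was at 1.56, Tnni1 at 1.32 and Tnnc1 at 1.13. By level Tnni3 ranked 207 in CM and 7997 in CP. In M21, 86 exon bases of Tnni3 are also exon bases of Dnaaf3, a dynein assembly factor gene on the same strand. Dnaaf3 stood at 5.27, 3.16, 2.74 and 1.98 RPKM, above Tnni3 in ESC and MES and below it in CP and CM, and its part in the early Tnni3 values was not tested.

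Slow skeletal troponin T, encoded by Tnnt1 (ENSMUSG00000064179), had its highest value in CM, as did Tnni3, Tnnt2, Tnni1 and Tnnc1. Like Tnni3, it had its widest step between CP and CM. Tnnt1 stood below Tnni3 in MES, CP and CM but above it in ESC. It was at 3.00, 0.345, 1.53 and 24.6 RPKM over the 4 stages, on 233, 22, 102 and 2246 reads. MES was 0.115-fold ESC (0.0706 to 0.178), CP was 4.43-fold MES (2.78 to 7.39) and CM was 16.1-fold CP (13.2 to 19.8). Its lowest value was therefore in MES, and its interval there (0.216 to 0.522 RPKM) does not meet those of the other stages.

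Fast skeletal troponin T, encoded by Tnnt3 (ENSMUSG00000061723), was the single member with its highest value in CP. It was at 0.701 and 1.50 RPKM in ESC and MES, 10.1 RPKM in CP and 2.08 RPKM in CM. CP was 6.72-fold MES (5.56 to 8.17), and CM was 0.207-fold CP (0.179 to 0.238). The blood and endothelial marker sums were also highest in CP. There 6 of 6 and 6 of 7 markers stood 2-fold or more above MES, as 8.91% of all genes did. In CM 6 of 6 and 5 of 7 stood 2-fold or more below CP, as 12.8% of all genes did. The part of blood and endothelial cells in the Tnnt3 value was not tested. Of 23 skeletal muscle markers, 12 were in the table, with sums of 97.5, 11.6, 29.0 and 42.6 RPKM over the stages. The factor genes Myod1 and Myog were among those not in the table, so they have no value here. In CM 2 of those 12 stood higher than in CP by 2-fold or more and 1 lower, against 11.3% and 12.8% of all genes. The higher ones were the calcium store protein gene Casq1, at 25.5 RPKM in CM and 1.95 RPKM in CP, and the myosin heavy chain gene Myh2, at 4.58 RPKM in CM and 0.275 RPKM in CP. The lower one was Mybpc1, the slow myosin-binding protein C gene, which like Tnnt3 was highest in CP (0.123, 0.0178, 14.2 and 4.90 RPKM over the stages). Most of the ESC sum came from the fast light chain gene Mylpf (58.99, 1.51, 2.63 and 0.881 RPKM) and the actinin gene Actn3 (32.1, 6.05, 4.22 and 1.96 RPKM). Pax3 was listed at 0 in CM and Myh2 at 0 in MES.

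**Figure D1:**
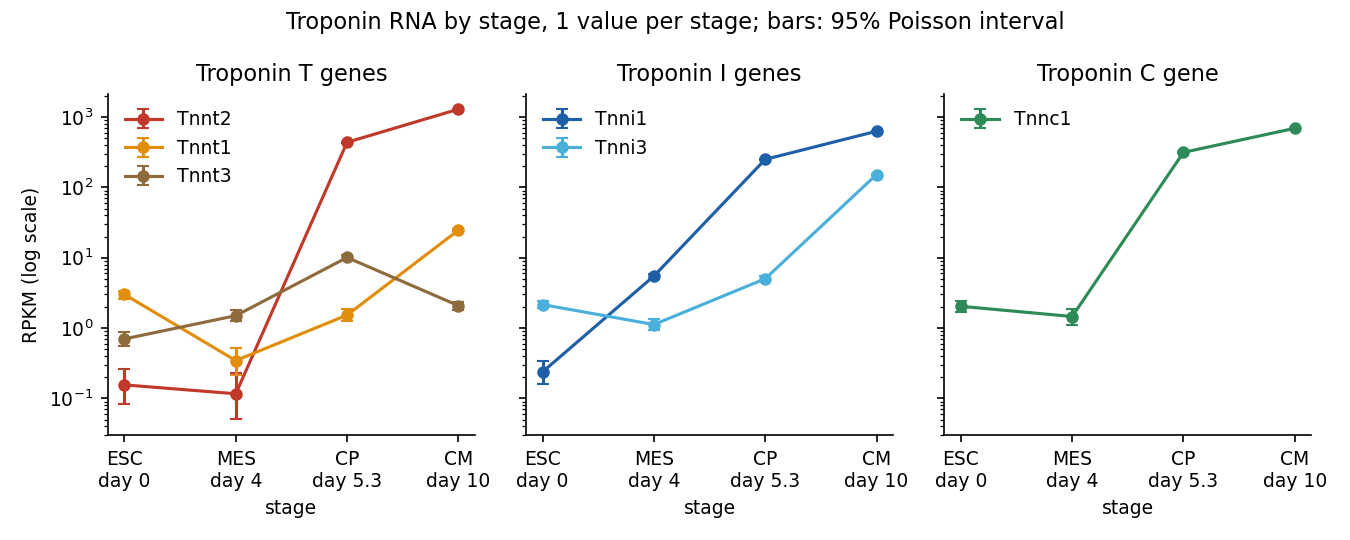
RPKM on a log axis at each stage for the troponin T, troponin I and troponin C genes, with 1 point per stage and bars for the 95% Poisson interval of the reads. Tnnt2, Tnni1 and Tnnc1 reach 437, 250.4 and 315 RPKM in CP, Tnni3 and Tnnt1 have their highest step between CP and CM, and Tnnt3 is highest in CP at 10.1 RPKM.

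Counted together, 1 of the 6 genes was at least 2-fold higher in MES than in ESC, where 11.1% of all genes were, and 1 was lower, where 11.2% were. These were Tnni1 (log2 difference 2.39) and Tnnt1 (-1.57). In CP, 5 of 6 stood higher than in MES by 2-fold or more, against 8.91% of all genes, and 0 lower, against 3.91%. The remaining gene, Tnnt1, had a difference of 0.91 with a pseudocount of 1 RPKM, and the median over the members was 3.71, against -0.03 over all genes. Set against CP, 5 of 6 stood higher in CM by 2-fold or more, against 11.3% of all genes, and Tnnt3 stood lower (-1.85), as 12.8% of all genes did. The median over the members was 1.44, against -0.15 over all genes. With quantile normalization across stages 3 of 6 stood at least 2-fold higher in CM, since Tnni1 then had a difference of 0.75 and Tnnc1 of 0.51. Set against ESC, 5 of 6 were at least 2-fold higher in CM, where 22.2% of all genes were, and 0 were lower, where 23.4% were. The remaining gene, Tnnt3, had a difference of 0.86 with the pseudocount of 1 RPKM, and its ratio in RPKM was 2.97 (2.27 to 3.93). With a pseudocount of 0.1 or 0.5 RPKM, or with stages scaled to equal sums, 6 of 6 stood higher. The same held for CP against MES. Shares of all genes under these settings were not computed. The comparisons share stage values, so they are not independent of each other.

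**Figure D2:**
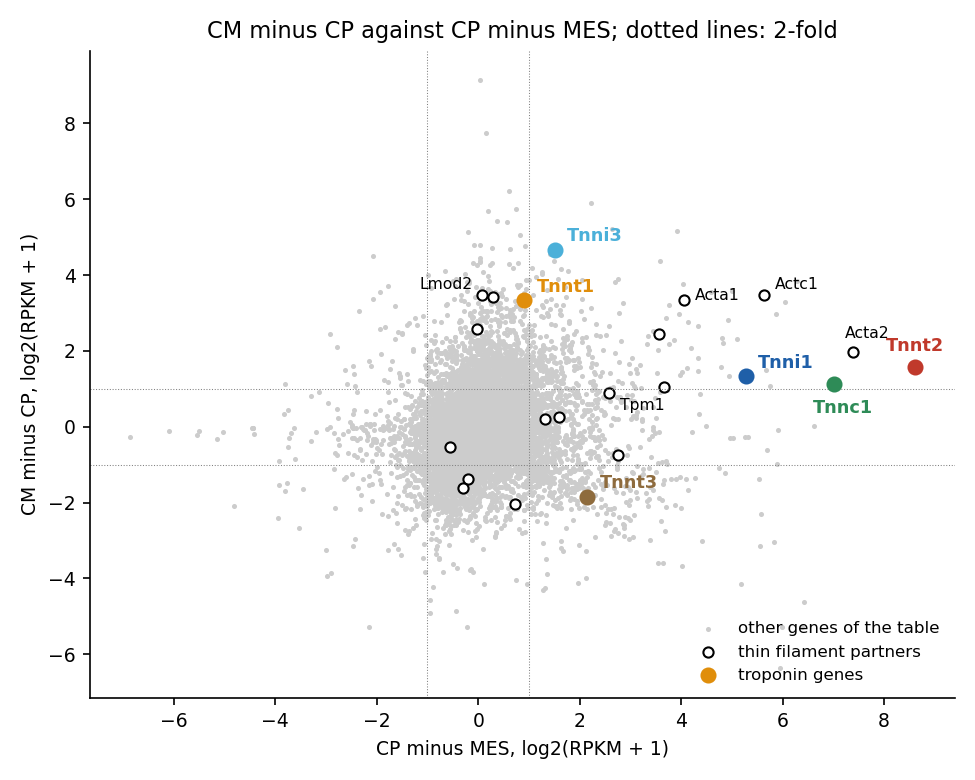
Log2 difference of CP minus MES on the x axis and of CM minus CP on the y axis for each gene of the table (grey), thin filament partners (open circles) and the 6 troponin genes (filled); the CP value enters both axes. Tnnt2 lies at 8.62 and 1.56, Tnni3 at 1.51 and 4.67, and Tnnt3 at 2.15 and -1.85.

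The share of Tnni1 in the summed RPKM of Tnni1 and Tnni3 describes the step from the early to the mature form of troponin I. The share was 9.98% (6.89% to 13.8%) for ESC and 83.1% (80.2% to 85.7%) for MES, then 98.0% (97.9% to 98.2%) for CP and 80.5% (80.3% to 80.7%) for CM, with exact binomial intervals of the reads carried to the RPKM scale. The sums behind these shares were 2.39, 6.62, 255 and 781 RPKM, so the ESC share divides a small sum. The third troponin I gene, Tnni2, is left out of them. It was at 3.23 RPKM in CP, where Tnni3 was at 5.03 RPKM, and at 2.54 RPKM in CM. Tnni1 was 4.13 times Tnni3 in CM and 49.8 times Tnni3 in CP. Of the 526 RPKM by which the sum stood higher in CM than in CP, Tnni3 made up 28.0% and Tnni1 72.0%. Of the 249 RPKM between CP and MES, Tnni3 made up 1.57%. At day 10 (CM) the early form was therefore still the more abundant RNA on this scale, and both forms were higher there than in CP.

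The length of the gene model enters this comparison, because RPKM divides reads by it. The recovered reads and depths gave model lengths of 1723 bases for Tnni1 and 1842 bases for Tnni3, whereas the M21 transcripts with the longest coding part are 1150 and 912 bases long. With reads divided by those transcript lengths, a choice made after seeing the data, the Tnni1 share was 78.4% in MES, 97.4% in CP and, at the last stage, 75.4%. Stages kept the same order. With 1 RPKM added to each gene the share was 80.4% in CM and 75.4% in MES, so the order of these stages, 80.5% in CM and 83.1% in MES as deposited, depends on that choice.

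Troponin T RNA consisted mostly of skeletal forms, at low level, in ESC and MES and of the cardiac form in CP and CM. In ESC, Tnnt1 made up 77.8% of the summed RPKM of the troponin T genes (73.1% to 82.0%), in a sum of 3.86 RPKM. In MES, Tnnt3 made up 76.5% (68.5% to 83.4%) of 1.96 RPKM. Tnnt2 made up 4.03% and 5.93% in ESC and MES, and 97.4% (97.3% to 97.6%) and 98.0% (97.9% to 98.1%) in CP and CM, where the sums were 449 and 1320 RPKM. Within the remainder, Tnnt1 exceeded Tnnt3 in CM, at 1.87% against 0.158%, and Tnnt3 exceeded Tnnt1 in CP, at 2.24% against 0.340%.

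**Figure D3:**
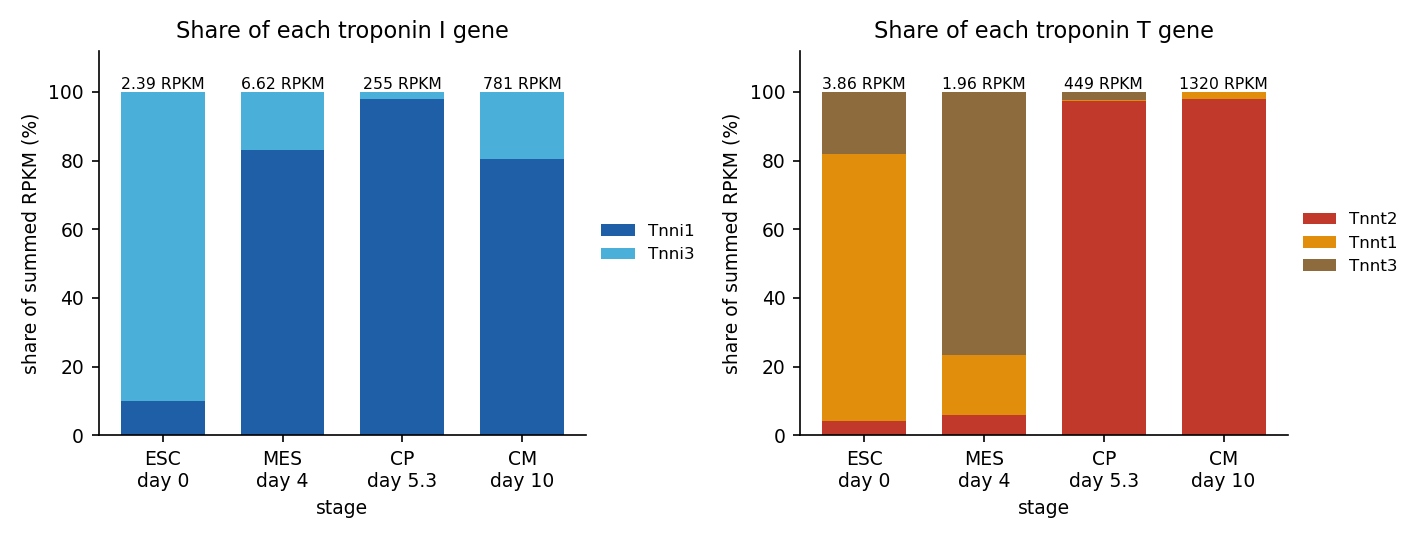
Stacked bars of each gene's share (%) at each stage, of the summed RPKM of Tnni1 and Tnni3 or of Tnnt1, Tnnt2 and Tnnt3. The sum stands above each bar, and Tnni2 is not in it. Tnni1 makes up 80.5% of the sum of Tnni1 and Tnni3 in CM and 98.0% in CP, and Tnnt2 makes up 98.0% of troponin T in CM and 97.4% in CP.

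The 6 genes together made up 0.00313%, 0.00395%, 0.424% and 1.07% of the summed RPKM of the table in ESC, MES, CP and CM. In the assembled complex the subunits occur in equal number. Summed troponin I is Tnni1 plus Tnni3 here, without Tnni2. In RNA, the ratio of summed troponin T to summed troponin I was 1.69 in CM and 1.76 in CP, troponin T to troponin C was 1.91 in CM and 1.43 in CP, and troponin I to troponin C was 1.13 in CM and 0.812 in CP. These ratios depend on the gene models, and some cross 1 with another length. With reads per length of the M21 coding transcripts, troponin T to troponin I was 0.979 in CM and 1.09 in CP, and troponin I to troponin C was 1.87 in CM and 1.27 in CP. The ratio of troponin T to troponin C was then 1.83 in CM and 1.38 in CP.

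Most troponin T and I genes of the mouse lie in pairs, 1 of each kind side by side. In M21, Tnni1 and Tnnt2 lie 25364 bases apart on the same strand of chromosome 1 with Lad1 between them. Lad1, which encodes a basement membrane filament protein of epithelia, was at 10.4, 6.88, 7.12 and 0.895 RPKM over the stages, its lowest value being in CM, where both troponin genes had their highest. On chromosome 7, Tnnt1 and Tnni3 lie 1922 bases apart on the same strand, and these are the members with the late course described above. Ppp1r12c, on the other side of Tnnt1, was at 14.3, 15.5, 16.5 and 14.5 RPKM. Elsewhere on chromosome 7, Tnnt3 lies 54425 bases from Tnni2, the gene of fast skeletal troponin I, with Lsp1, a gene expressed in white blood cells, between them. Tnni2 was at 0.212, 0.0215, 3.23 and 2.54 RPKM, on 24, 2, 314 and 337 reads. Lsp1 was at 0.587, 1.17, 4.46 and 1.43 RPKM, so that Tnni2, Lsp1 and Tnnt3 each had their highest value in CP. For Tnni2, CM was 0.785-fold CP (0.671 to 0.919), under 2-fold, where Tnnt3 was at 0.207-fold. Tnnc1 lies on chromosome 14, apart from the other members. These neighbours were named for their position.

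**Figure D4:**
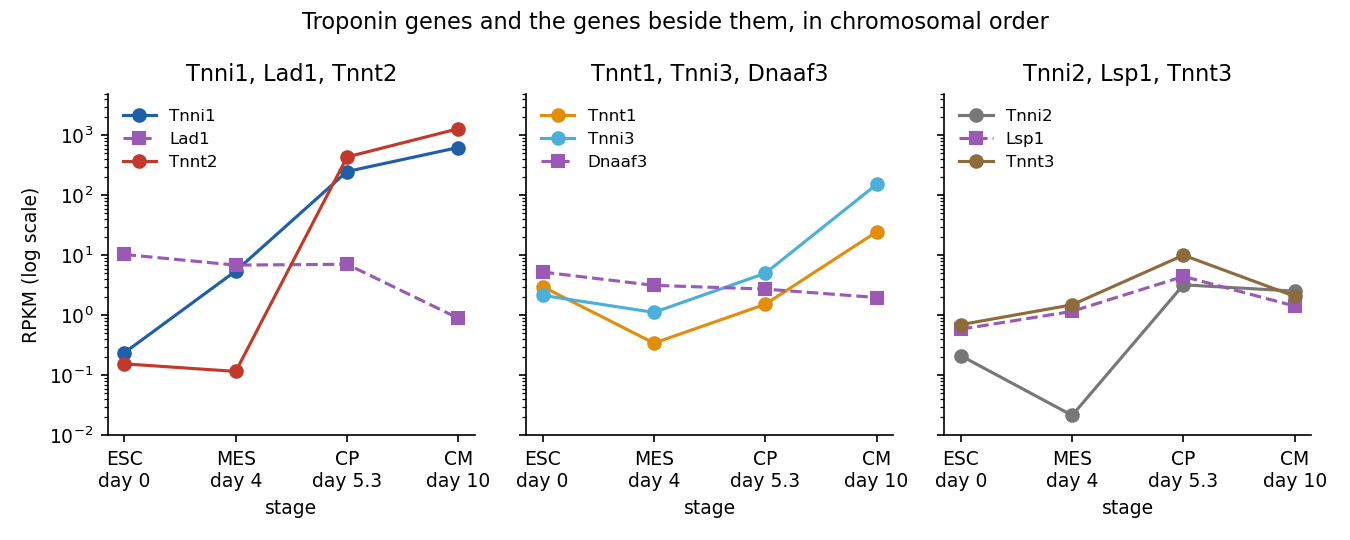
RPKM on a log axis at each stage for 3 groups of adjacent genes, troponin genes as circles and other genes as squares. Tnni1 and Tnnt2 are highest in CM while Lad1 between them is at 0.895 RPKM, Tnnt1 and Tnni3 are highest in CM at 24.6 and 152 RPKM, and Tnni2, Lsp1 and Tnnt3 are highest in CP.

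By the distance between profiles of log2(RPKM + 1), each centred on its own mean over the 4 stages, Tnnt1 was nearer to Tnni3 (2.12) than to any other member. Tnnc1 was near to both Tnni1 (1.93) and Tnnt2 (1.99), and Tnni1 lay 4.77 from Tnni3. Over the whole table, the genes most like Tnni1 were Myl7, the atrial myosin light chain (1.02), Popdc2, a membrane protein gene of striated muscle (1.70), and Myl4, the other atrial light chain (1.84). Those most like Tnnc1 were Popdc2 (1.01), Myl4 (1.39) and Myl3, the ventricular essential light chain (1.42). Those most like Tnnt2 were Tnnc1, Myh7, a myosin heavy chain (2.05), and Myl3 (2.08). For each of these 3 members, 0 genes lay within a distance of 1. Tnni3 had 17 such genes, led by Pygm, muscle glycogen phosphorylase (0.35), Lrrc10, a cardiac leucine-rich repeat protein gene (0.46), and Col3a1, a fibrillar collagen gene (0.47). Tnnt1 had 59, led by Fry, Rusc2 and Trim47. Tnnt3 had 202, among them Oprk1, an opioid receptor gene (0.22), and Mab21l2 (0.31). Profiles were centred but not scaled, so the number of genes within a distance of 1 also depends on how far a member's values range. With 4 points per profile these likenesses are descriptions.

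Promoter windows are shown for Tnnt2, Tnnc1 and Tnni1, which had their widest step between MES and CP, and for Tnni3, which had it between CP and CM. They hold bases 250 to 21 before the most upstream RefSeq start on build GRCm38.p6. Bases in an annotated exon are left out, which leaves 146 bases for Tnni3. Tnnt2 and Tnni1 each have 2 RefSeq starts, and matches before the other start are not shown. RefSeq gives the reference strain and not 129/Ola. Capitals mark matches on either strand to 6 motifs. The MCAT motif, the site of TEAD factors, was searched as the letters CATTCC. The motif of GATA factors was searched as the letters AGATAA or AGATAG or TGATAA or TGATAG. The box bound by the TATA-binding protein was searched as the letters TATAAA, that of NKX2-5 (NKE) as the letters TNAAGTG, and the MEF2 and CArG motifs are given by name alone. No marked match overlaps another. The windows are chr1:135836084-135836313 (plus strand) for Tnnt2, chr14:31208062-31208291 (plus) for Tnnc1, chr1:135799171-135799400 (plus) for Tnni1 and chr7:4522549-4522694 (minus) for Tnni3.
Tnnt2: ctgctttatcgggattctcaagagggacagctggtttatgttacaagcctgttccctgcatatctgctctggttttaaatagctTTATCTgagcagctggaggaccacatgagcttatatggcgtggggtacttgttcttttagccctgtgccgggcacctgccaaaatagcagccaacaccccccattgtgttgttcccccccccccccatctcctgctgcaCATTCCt
Tnnc1: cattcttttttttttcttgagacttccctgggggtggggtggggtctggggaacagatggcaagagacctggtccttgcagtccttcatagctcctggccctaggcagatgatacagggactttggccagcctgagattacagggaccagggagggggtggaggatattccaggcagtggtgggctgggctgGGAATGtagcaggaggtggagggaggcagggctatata
Tnni1: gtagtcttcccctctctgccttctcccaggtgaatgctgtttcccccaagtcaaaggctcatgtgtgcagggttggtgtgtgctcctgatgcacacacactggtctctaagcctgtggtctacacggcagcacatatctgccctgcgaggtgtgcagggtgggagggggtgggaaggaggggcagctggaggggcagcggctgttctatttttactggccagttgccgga
Tnni3: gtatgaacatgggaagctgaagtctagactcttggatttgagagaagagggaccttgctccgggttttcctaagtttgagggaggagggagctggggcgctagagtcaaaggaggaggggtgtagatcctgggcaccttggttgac

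The Tnnt2 window held an MCAT match 27 to 22 bases before the start and a GATA match 166 to 161 bases before it. The Tnnc1 window held an MCAT match on the other strand, 58 to 53 bases before the start. The Tnni1 and Tnni3 windows held none of these letters. Among 32851 RefSeq promoter windows of the full 230 bases, MCAT matched in 11.8%, GATA in 25.4%, TATA in 11.8%, NKE in 9.48%, MEF2 in 2.75% and CArG in 1.41%.

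The partners of troponin on the thin filament were compared as a list of 18 genes, 16 of them in the table. Of these, 9 stood higher in CP than in MES by 2-fold or more and 0 lower (median 1.45), and 8 stood higher in CM than in CP and 3 lower (median 0.97, against -0.15 over all genes). Of all genes, 8.91% stood higher and 3.91% lower in CP than in MES, and 11.3% higher and 12.8% lower in CM than in CP. Cardiac actin, Actc1, was at 3917 RPKM in CM and 352 RPKM in CP, skeletal actin, Acta1, at 259 and 24.4 RPKM, and smooth muscle actin, Acta2, at 1944 and 498 RPKM. The tropomyosin gene Tpm1 was at 356 RPKM in CM and 193 RPKM in CP, under 2-fold. The 3 lower genes were 2 other tropomyosin genes, Tpm4 (41.7 RPKM in CM, 176 RPKM in CP) and Tpm3 (5.40 and 18.5 RPKM), and Tmod2 (0.316 and 2.42 RPKM). The leiomodin genes Lmod2 and Lmod3, whose proteins elongate thin filaments, were at 10.7 and 12.3 RPKM in CM and at 0.0549 and 0.241 RPKM in CP. Their widest step, like that of Tnni3, lay between CP and CM.

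Other isoform pairs were set beside the troponin I share. Early and late are the labels of the chosen list. For the pairs with Myl4 and Myl7, the member labelled early is an atrial light chain. Of 8 pairs so labelled besides Tnni1 and Tnni3, 6 had a higher share of the late form in CM than in CP. Differences of any size were counted, and no base share for such pairs was computed. The share of Tnni3 was 19.5% in CM and 1.97% in CP. Cox6a2, the muscle form of a cytochrome oxidase subunit paired with Cox6a1, made up 53.6% in CM and 5.17% in CP. The differences of the myosin pairs were smaller, with Myh6 against Myh7 at 60.5% in CM and 51.3% in CP, Myl3 against Myl4 at 73.2% and 63.6%, and Myl2 against Myl7 at 3.12% and 0.584%. The glucose transporter Slc2a4 against Slc2a1 stood at 4.60% in CM and 2.92% in CP, and Actc1 against Acta1 at 93.8% and 93.5%. The late form had a lower share in CM for Hk2 against Hk1 (59.5% in CM, 83.9% in CP) and Cpt1b against Cpt1a (81.5% in CM, 99.0% in CP). Ckb and Ckm were not compared, as Ckm was not in the table.

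**Figure D5:**
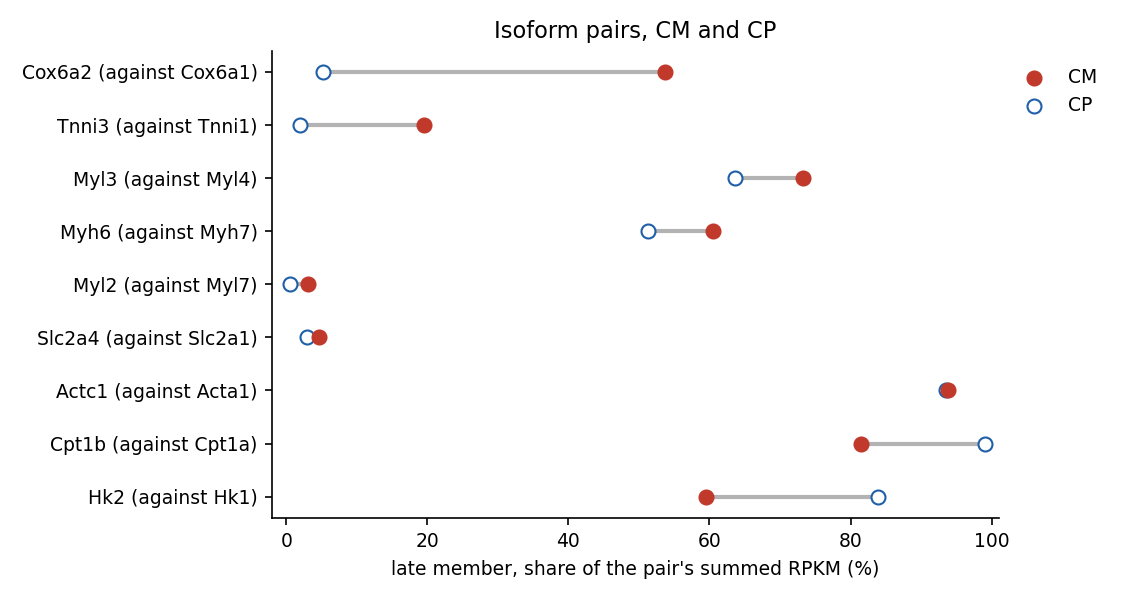
Share (%) of the member labelled late in the summed RPKM of each isoform pair, CM as filled and CP as open circles. Tnni3 is at 19.5% in CM and 1.97% in CP, and of the other 8 pairs 6 have the higher share in CM.

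Phosphorylation of cardiac troponin I by protein kinase A, downstream of beta-adrenergic receptors, speeds relaxation of the heart. Of 25 genes of kinases, phosphatases and adrenergic signalling, 24 were in the table, and 6 were at least 2-fold higher and 1 lower in CM than in CP (median 0.26), where 11.3% of all genes were higher and 12.8% lower. The adenylyl cyclase gene Adcy5 was at 24.3 RPKM in CM and 1.44 RPKM in CP, the beta-1 receptor gene Adrb1 at 3.34 and 0.209 RPKM, the calcium-dependent kinase gene Camk2d at 9.34 and 2.06 RPKM, and Ppp1r12b, a myosin phosphatase subunit gene, at 8.34 and 1.30 RPKM. The kinase A regulatory subunit gene Prkar1a was at 102 RPKM in CM and 62.7 RPKM in CP, and the phosphatase gene Ppp1ca at 168 and 238 RPKM. The genes named are the extremes of the list or its most abundant members.

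Transcription factors known to act on cardiac muscle genes were compared as a list. Of 13, 7 stood higher in CP than in MES by 2-fold or more and 0 lower (median 1.76), and 3 were higher and 4 lower in CM than in CP (median -0.31). Over all genes the shares were 8.91% higher and 3.91% lower for CP against MES, and 11.3% and 12.8% for CM against CP. Nkx2-5 was at 178 RPKM in CM and 70.1 RPKM in CP and Mef2a at 27.3 and 9.73 RPKM, whereas Hand2 was at 39.5 and 199 RPKM and Isl1 at 14.3 and 49.9 RPKM. Gata6 was at 75.9 RPKM in CM and 99.7 RPKM in CP, and Srf at 42.6 and 78.4 RPKM.

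Troponin T transcripts are spliced into fetal and adult forms, which a value per gene cannot show. Of 9 splicing regulators known to act on them, 8 were in the table. Of those, 2 stood higher in CM than in CP by 2-fold or more and 1 lower, against 11.3% and 12.8% of all genes. Mbnl2 and Celf2 were at 49.3 and 9.70 RPKM in CM and at 9.68 and 2.84 RPKM in CP, and Ptbp1, a repressor of muscle exons, was at 54.7 RPKM in CM and 144 RPKM in CP. Rbfox2 was at 50.4 RPKM in CM and 53.2 RPKM in CP, and Rbm24 at 71.6 and 76.1 RPKM.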

How the data were processed

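Per the labels' protocols, TRIzol RNA was selected for poly(A), made into paired-end libraries with PCR and read on a GAIIx sequencer. Reads were aligned with Novoalign 2.07.00 to build mm9, per the submitters' processing notes. For the counting tool, strand setting, gene models and the way a stage's 2 libraries became 1 column, the sources used here give nothing. The authors deposited RPKM values, 1 column per stage, for 13540 genes. Each of these genes reached at least 1.00 RPKM in some stage. Shares of all genes, and list counts, are therefore limited to genes that did so. With no values per library, no test across libraries (limma) was run.

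Differences are log2(RPKM + 1), and at least 2-fold counts as called. Depth ratios came from the steps between low values. Whole reads (relative tolerance 3e-07) were recovered for 11014 genes (81.3%) as the smallest fitting numbers, and true numbers that were a multiple of these would have narrower intervals. Absolute depth was set where M21 exon lengths piled up, with 24.7% of 10682 genes within 0.1%. Depth ratios and read recovery were tested on simulated data, and absolute depth was not. The depths in M reads and the model lengths rest on that absolute depth. A count of 3 reads equals 0.0184 to 0.0695 RPKM for the members. Of the members' 32-base words in M21, 5.39% (Tnnc1) or less occur in other genes. The table's Tnnc1 ID differs from that of M21, and that gene was matched by symbol. Intervals are Poisson, or exact binomial for ratios and shares, in scipy 1.17.1.

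Members, 12 gene lists and 10 isoform pairs were chosen with earlier results of these data known. The text names the members, and from each list other than those of cell type markers up to 4 genes with the highest CM minus CP difference past 2-fold in either direction and the 2 others with the highest mean RPKM, besides the 3 genes nearest to each member, of which 1 is not reported here. Marker genes were named after their values were seen, as were the 3 thin filament partners lower in CM than in CP. Motif letters were chosen with the values known.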

Additional observations from a re-analysis of the deposited data

How the results depend on the processing

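No paired analysis was possible because the table has 1 column per stage, which carries no replicate number. Leaving out a replicate could not be run for the same reason. At a minimum of 4-fold in RPKM + 1, 2 members stood higher in CM than in CP and 0 lower, and 0 stood lower in MES than in ESC. The added 1 RPKM enters these counts. In RPKM alone, Tnnt1 in MES was 0.115-fold ESC and Tnnt3 in CM was 0.207-fold CP, both past 4-fold. The share of all genes at 4-fold was not computed. Quantile normalization left 3 members higher in CM than in CP. Scaling to equal sums moved the median of all genes for CM minus CP by -0.14, and median-ratio scaling moved it by 0.11. Of 24 log2 differences of single members, 19 moved past their counting error with a pseudocount of 0.1 RPKM, and 19 with equal sums. Of those past 2-fold, 0 changed sign under either setting. For Tnnt2, CP minus MES was then 10.98 and 10.29, against 8.62. Ranks among all genes under these settings were not computed.

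With 1 RPKM added to each gene, the Tnni1 share was 28.2% for ESC, 75.4% for MES, 97.7% for CP and 80.4% for CM, so that CM stood above MES, the opposite of the reported order (80.5% in CM, 83.1% in MES). Reads per length of 1 coding transcript, a choice made after seeing the data, gave 78.4% in MES, 97.4% in CP and 75.4% in CM. For troponin T, adding 1 RPKM gave Tnnt1, Tnnt2 and Tnnt3 shares of 58.4%, 16.8% and 24.8% in ESC, 27.1%, 22.5% and 50.4% in MES, and 0.559%, 96.99% and 2.45% in CP, with Tnnt2 at 97.8% and Tnnt3 at 0.233% in CM. By coding transcript length, Tnnt2 was at 96.6% and Tnnt3 at 3.00% in CP, and Tnnt1 at 1.96%, Tnnt2 at 97.8% and Tnnt3 at 0.212% in CM. The ratios of troponin T to I, T to C and I to C were then 0.979, 1.83 and 1.87 in CM and 1.09, 1.38 and 1.27 in CP, which puts T to I in CM below 1 and I to C in CP above 1, each on the other side from the reported 1.69 and 0.812.

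The lists of nearest genes depended on the measure. With a pseudocount of 0.1 RPKM, 1 of the 3 nearest genes was kept for Tnnt2 and 1 for Tnni1, and 0 for Tnnt3, Tnni3 and Tnnc1. With Pearson correlation, 0 were kept for each of the 6 members. Low reads limit the Tnnt2 values in ESC and MES.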
